A study of Mus musculus with 6 samples.

Results

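Nexmif, Rims2, Nalcn, Hecw1, Rcan2 and Ppfibp1 are 6 mouse genes known mainly from neurons, and in these tumours all 6 had far fewer reads where the injected line was the Uhrf1 knockout. They are 6 of 10766 genes that the deposited tables measured through a row of their own, meaning an interval set that covers at least 50 bases of exon of only that gene. The 6 were picked because their counts were much lower in this same comparison, so their fall is described below and carries no test. RNA of whole tumours was sequenced from 3 sgNT tumours, labelled wild type and control, and 3 sgUhrf1 tumours, labelled Uhrf1 knockout. Both came from LG1233-OVA, a murine lung cancer line, edited with CRISPR/Cas9 into stable lines; OVA ordinarily stands for ovalbumin, a model antigen, and both groups carry it. For each tumour 1000000 cells were placed under the skin of a female C57BL/6 mouse, and the tissue was taken on day 27. The labels give neither the age of the mice, nor the guide sequences, nor whether each line was a clone or a pool, and other differences between the edited lines cannot be told apart from an effect of the knockout. The replicates are labelled biological, and the p-values measure only the spread between these tumours.

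Neurons release transmitter at the active zone, a protein scaffold under the presynaptic membrane that holds vesicles next to calcium channels. Rims2 is a core protein of that scaffold, and liprins, the family of Ppfibp1, link scaffolds to membrane receptors. Nalcn is the sodium leak channel that sets resting excitability, Hecw1 is a ubiquitin ligase of the NEDD4 family, Rcan2 restrains the phosphatase calcineurin, and Nexmif is an X-linked gene of neurite extension whose loss causes intellectual disability. Ppfibp1 and Rcan2 are also made outside neurons, and the adjective neuronal describes the genes, not the cells that made the RNA here. The RNA-binding proteins Elavl2 and Elavl3, used to define neurons, had 0 counts in all 6 tumours. Of the other neuronal markers with a row, Nefm had at most 8 counts a tumour, and Map2, Uchl1 and Thy1 had reads in every tumour. In bulk tumour RNA, fewer cells of a type and less RNA per cell cannot be told apart.

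Library totals were 5462555 to 6375069 counts. For Uhrf1, the targeted gene, sgNT tumours gave 841, 917 and 554 counts over 690 exon bases, and sgUhrf1 tumours gave 685, 460 and 409. Its difference, sgUhrf1 minus sgNT, was -0.37 ± 0.23 log2 units (SE, 3 tumours a group). Each SE of a log2 difference here is its size over the square root of the test's F statistic. Uhrf1 did not pass the threshold of 0.05 (edgeR's quasi-likelihood test, adjusted p = 0.227, as for all adjusted p-values that follow). Where the guide cuts is not given, so this level does not check the knockout labels. The row names of the tables and their coordinates come from different mouse genome builds, and genes were therefore named by position. A row listed as Hecw1, for instance, covers 893 bases of Mrpl32 exons and no exon base of Hecw1. It also spans 11090 intron bases of Hecw1, and it held 31, 20 and 15 counts against 17, 14 and 6. Across 4578 genes that passed the filter on low counts, 985 (21.5%) were lower and 945 (20.6%) higher in sgUhrf1 tumours. All 6 genes passed that filter and lay past the threshold on the lower side, from which nothing is read since this contrast chose them.

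Rims2, the active zone scaffold protein, was counted through 1 whole coding exon, exon 23 of 27, present in 5 of its 12 annotated transcripts. The exon is printed because it is the only Rims2 exon that a row of its own covers. It lies on the plus strand at chr15:39674940-39675081 of GRCm38, with sequence from GENCODE, and capitals mark CpG dinucleotides, the sites of DNA methylation that Uhrf1 helps to maintain.
Rims2 exon 23: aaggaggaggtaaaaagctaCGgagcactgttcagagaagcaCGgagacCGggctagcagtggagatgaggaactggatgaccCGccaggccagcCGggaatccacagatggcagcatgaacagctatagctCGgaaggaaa
Counts were 45, 33 and 69 for sgNT and 1, 0 and 0 for sgUhrf1. In CPM, counts per 1000000 of the library, this was 8.08 ± 3.76 (SD, n = 3) against 0.0590 ± 0.102. Pooled over tumours the level was 130-fold lower, with a 95% exact interval of 22.9 to 5155 that covers counting error only. The only sgUhrf1 read was in replicate 1, so the size of this fall is poorly fixed although the groups did not overlap. The row also spans 2452 intron bases, from which unspliced reads may come.

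Ppfibp1, liprin-β1, was the most highly expressed of the 6 and kept the most reads. It lies at chr6:146888487-147032025 on the plus strand. Its main row covers 1934 exon bases, 369 of them coding in exons 7, 14, 15 and 16 of the 28 exons of its main transcript, and includes an exon of a retained-intron transcript. Its sgNT counts were 786, 1522 and 1135, and its sgUhrf1 counts 70, 63 and 29. These were 184 ± 52.8 CPM (SD, n = 3) and 9.59 ± 3.03 CPM, an 18.7-fold fall (95% counting interval 16.0 to 22.1), with 5.33% of the level left. Every sgUhrf1 tumour still held at least 29 Ppfibp1 reads, and the word lost does not apply to this gene. A second row over 145 bases at exon 3 had 281, 622 and 487 against 12, 19 and 3 counts, 36.1-fold lower (25.7 to 52.3). The third, over 161 bases of an alternative exon, had 61, 60 and 55 against 6, 4 and 1 counts, 14.1-fold lower (7.70 to 28.8). The 3 rows hold different exons and all put every sgNT tumour above every sgUhrf1 tumour. They also span 4515, 1133 and 10106 intron bases, from which unspliced reads may come. The promoter of Ppfibp1 is printed, on the plus strand at chr6:146888244-146888543 of GRCm38.p6 from RefSeq with CpG in capitals, because it is the CpG-rich extreme among the promoters of these genes.
Ppfibp1 promoter: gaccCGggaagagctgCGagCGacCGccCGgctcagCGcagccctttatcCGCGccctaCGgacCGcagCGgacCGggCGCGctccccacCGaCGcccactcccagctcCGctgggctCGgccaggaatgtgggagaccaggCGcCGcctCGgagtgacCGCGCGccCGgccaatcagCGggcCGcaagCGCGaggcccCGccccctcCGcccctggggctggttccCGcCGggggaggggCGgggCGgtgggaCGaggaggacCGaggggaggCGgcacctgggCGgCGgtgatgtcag

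Nalcn, the sodium leak channel, was counted through exons 8 and 9 of 44, both wholly coding. Exon 8 lies on the minus strand at chr14:123515631-123515773 of GRCm38 and is printed, CpG in capitals, as the larger of the pair that carries the measurement. Beneath it stands the RefSeq promoter, minus strand, chr14:123627095-123627394 of GRCm38.p6, as the CpG-poor extreme.
Nalcn exon 8: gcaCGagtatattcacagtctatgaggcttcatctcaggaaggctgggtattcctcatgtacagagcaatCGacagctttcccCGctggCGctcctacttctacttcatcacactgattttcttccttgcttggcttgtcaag
Nalcn promoter: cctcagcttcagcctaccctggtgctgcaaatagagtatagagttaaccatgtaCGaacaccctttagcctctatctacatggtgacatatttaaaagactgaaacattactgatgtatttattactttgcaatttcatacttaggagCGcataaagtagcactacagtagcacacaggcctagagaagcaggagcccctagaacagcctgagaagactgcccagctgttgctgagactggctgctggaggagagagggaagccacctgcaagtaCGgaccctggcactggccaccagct
Nalcn had 21, 36 and 61 counts with sgNT and 2, 0 and 1 with sgUhrf1. The level was 6.49 ± 3.87 CPM (SD, n = 3) against 0.191 ± 0.179 CPM, 34.7-fold lower with a counting interval of 11.6 to 171. Nalcn varied most of the 6 among sgNT tumours, with a coefficient of variation of 59.7%, and sgNT replicate 1 was the lowest. Even so that tumour stood 9.39-fold above the highest sgUhrf1 tumour in CPM. The row extends over 7233 intron bases and 7234 bases beyond the gene, so not every read need be spliced Nalcn message.

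Hecw1, the ubiquitin ligase, had 3 rows of its own, at exons 6, 11 and 29, on the minus strand of chromosome 13. The nearest of them lies 177133 bases from the start of the gene, so its first part was not measured. The most-counted covers 2674 bases of the last exon, exon 29, all in the 3′ untranslated region. It held 177, 170 and 123 counts with sgNT and 2, 0 and 3 with sgUhrf1, and the sgUhrf1 mean was 0.338 CPM. This was 82.9-fold lower (35.3 to 257), and the sgNT tumours differed from each other by no more than 1.29-fold. The rows over coding exons had smaller counts and were at 0 in all sgUhrf1 tumours. The row with exon 11, 102 bases at chr13:14311689-14311790, had 25, 30 and 22 against 0, 0 and 0 counts. It was at least 22.6-fold lower when 3 counts over the group are taken as the limit. The row with exon 6, 76 bases, had 11, 17 and 11 against 0, 0 and 0, at least 11.5-fold lower by the same limit. These rows also span 16863 intron bases around exon 11 and 3360 around exon 6. Their reads may therefore be unspliced rather than from the coding exons. Exon 11 is printed from GENCODE on the minus strand of GRCm38, CpG in capitals, as coding sequence in a row at 0 in every sgUhrf1 tumour.
Hecw1 exon 11: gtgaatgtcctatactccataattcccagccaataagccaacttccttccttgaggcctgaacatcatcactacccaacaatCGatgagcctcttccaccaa

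Rcan2, the calcineurin regulator, had 60, 67 and 61 counts with sgNT and 0 in all 3 sgUhrf1 tumours. The sgNT level of 10.1 ± 0.668 CPM (SD, n = 3) was the steadiest of the 6, with a coefficient of variation of 6.62%. With 3 counts over the group as the limit, the level was at least 55.3-fold lower, and at most 1.81% of it was left. The gene spans chr17:43801351-44039516 on the plus strand, and the 457 exon bases counted are first exons of 3 of its 7 annotated transcripts, Rcan2-201, Rcan2-203 and Rcan2-205. The other 4 transcripts start elsewhere, outside the row. The row also spans 3478 intron bases, where unspliced RNA of transcripts that start upstream may be counted. These counts are therefore not tied to the internal start alone. That start is printed as the RefSeq promoter at chr17:43952749-43953048 of GRCm38.p6, plus strand, CpG in capitals, because it is the one the counted exons adjoin.
Rcan2 internal promoter: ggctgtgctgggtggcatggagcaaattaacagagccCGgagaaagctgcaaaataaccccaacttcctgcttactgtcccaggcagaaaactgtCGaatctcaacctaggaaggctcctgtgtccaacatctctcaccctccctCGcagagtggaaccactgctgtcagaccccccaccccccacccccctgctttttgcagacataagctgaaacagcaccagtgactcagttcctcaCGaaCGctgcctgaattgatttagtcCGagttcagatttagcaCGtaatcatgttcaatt

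Nexmif, on the X chromosome at chrX:104077434-104201185, minus strand, was measured over 5874 exon bases in exons 4 and 5 of 5, 50.9% of its exon length and the broadest coverage of the 6. Nexmif counts were 602, 785 and 525 with sgNT and 27, 56 and 38 with sgUhrf1. In CPM these were 102 ± 12.9 (SD, n = 3) and 7.34 ± 2.23, a 13.9-fold fall (11.6 to 16.9). This was the smallest fall of the 6, and 7.18% of the level was left. In counts the lowest sgNT tumour had 525 and the highest sgUhrf1 tumour 56, so reads were fewer in every sgUhrf1 tumour but the gene was not lost. Its RefSeq promoter lies on the minus strand at chrX:104201135-104201434 of GRCm38.p6 and is printed, CpG in capitals, as the one promoter of the set on a sex chromosome.
Nexmif promoter: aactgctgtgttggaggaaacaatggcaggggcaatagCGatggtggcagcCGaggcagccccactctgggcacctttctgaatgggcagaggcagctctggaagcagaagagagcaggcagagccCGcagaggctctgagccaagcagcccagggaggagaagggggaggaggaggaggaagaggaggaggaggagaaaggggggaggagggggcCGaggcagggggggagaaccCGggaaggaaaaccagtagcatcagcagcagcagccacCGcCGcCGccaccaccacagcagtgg

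**Figure D1:**
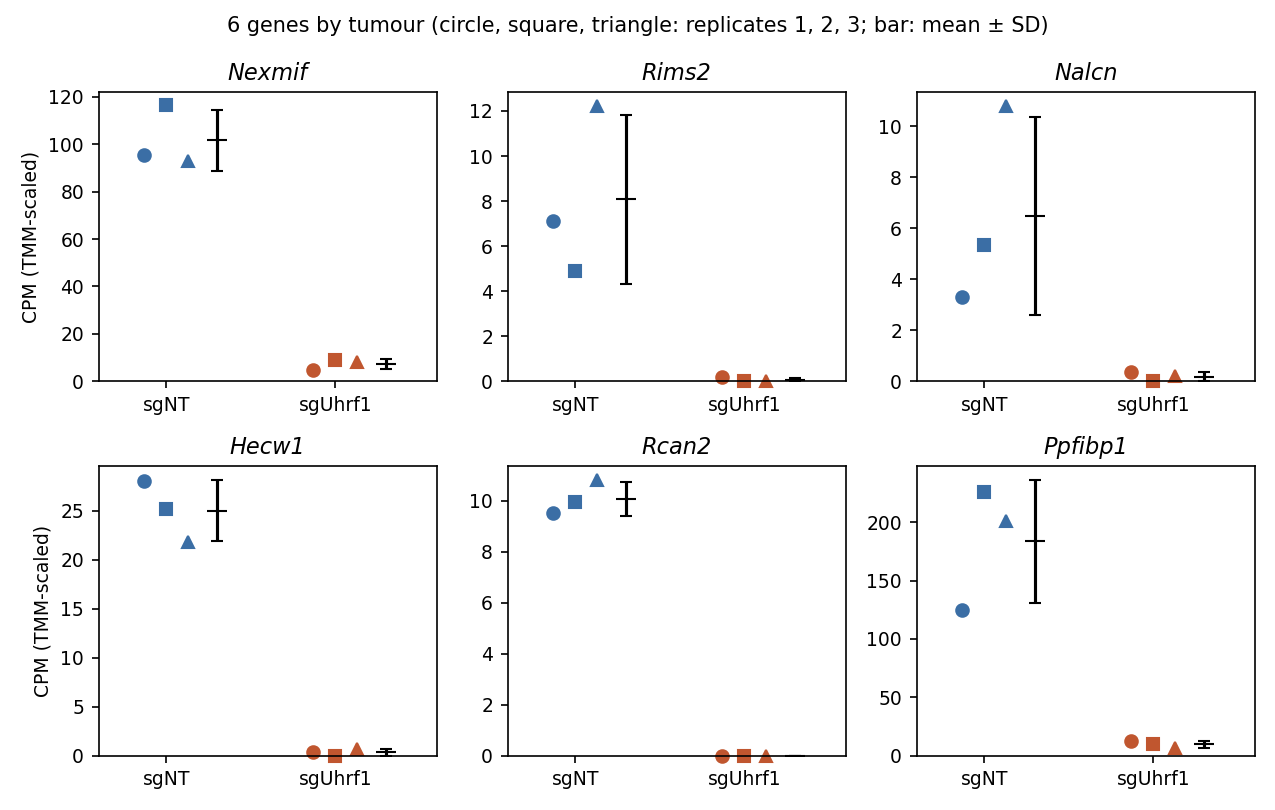
Each panel plots 1 gene in CPM, by tumour, with sgNT on the left, sgUhrf1 on the right, symbols for replicates 1 to 3 and bars for mean ± SD. In all 6 panels every sgNT tumour lies above every sgUhrf1 tumour, and Rcan2 is at 0 in all 3 sgUhrf1 tumours.

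The promoters printed above do not share a CpG density. RefSeq held promoters for 4 of the 6 genes, 6 promoters in all, each running from 250 bases before a start to 50 after it. Ppfibp1 had 40 CpG, more than 96.1% of 32851 mouse promoters, whereas Nalcn had 3, and 23.3% of promoters had fewer. Nexmif had 8 and the internal Rcan2 start had 7, equal to the median of 7 over all promoters. The other Rcan2 starts had 5 and 20. Which of these annotated starts the tumours used was not measured, and a link between CpG density and the falls was not tested. No methylation was measured in these samples.

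**Figure D2:**
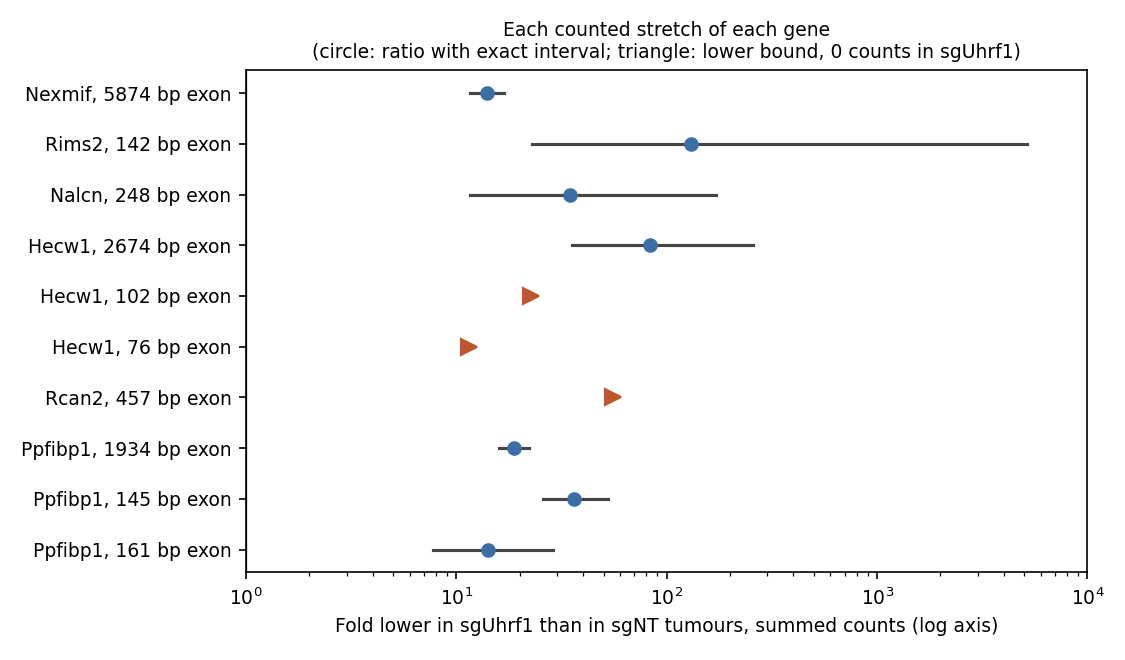
Each of the 10 rows of the 6 genes is plotted by its fold fall from sgNT to sgUhrf1 tumours on a log axis, as a circle with its 95% exact counting interval or, where sgUhrf1 had 0 counts, as a triangle at the lower bound. All 10 symbols lie right of 10-fold, and the intervals of the 3 Ppfibp1 rows are the narrowest beside that of Nexmif.

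Hecw1 and Ppfibp1 were the only 2 of the 6 with more than 1 row of their own, and their 4 further rows, given above, also had fewer sgUhrf1 counts. A further 20 rows lay in their introns without any exon base, and together they held 82 counts in sgNT tumours and 7 in sgUhrf1 tumours. Nexmif introns gave 41 of those against 5, Ppfibp1 and Nalcn introns gave 13 against 1 each, and Rims2 introns gave 11 against 0. Hecw1 introns gave 0 in both groups. Rows over these introns that also hold exons of other genes are not in this sum. The row listed as Rims2, with 8677 Rims2 intron bases, had 105 counts against 66, 1.40-fold lower. The row listed as Hecw1, with 11090 Hecw1 intron bases, was 1.57-fold lower. The row of 1700034J05Rik, inside Ppfibp1, was 14.7-fold lower. Their reads may come from either gene. In the 6 main rows the groups did not overlap, which 29.6% of all tested genes also showed in the lower direction. A fitted fall of at least 4 log2 units was found for 19 of the 4578 genes (0.415%), among them 5 of these 6. As the 6 were chosen for their fall in this comparison, these shares only restate that choice. Per kilobase of exon covered, the sgNT levels ran from Ppfibp1, the highest, through Rims2 at 56.9 CPM, Nalcn at 26.2, Rcan2 at 22.1 and Nexmif at 17.3 to Hecw1 at 9.35. Nalcn, Rcan2 and Nexmif, and Rims2 above them, are not separated in that order, given the spread of Rims2 and Nalcn between tumours and the intron reads their rows can hold.

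Other genes of the same pathways lay on both sides of 0. The 6 lists of companion genes, covering active zone, liprins, sodium channels, calcineurin, NEDD4 ligases and neurite extension, name 124 genes besides the 6. Of these, 59 had a row of their own and 38 could be tested. In sgUhrf1 tumours 12 were lower (31.6%), 8 were higher (21.1%) and 18 did not pass, beside 21.5% lower and 20.6% higher over all genes. Their median log2 difference was -0.41, against -0.0035 over all genes. The count of lower genes dropped from 12 to 6 without sgNT replicate 2, and to 4 when sgUhrf1 replicate 1, the other tumour rich in muscle RNA, was left out as well. With both out, 2 tumours a group remain, so a call can be lost while the difference stays as large.

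At the active zone 9 companions of Rims2 were tested, and 4 were higher (44.4%) and 2 lower (22.2%), beside 20.6% and 21.5% over all genes. Unc13b, which primes vesicles for fusion, had 181, 121 and 75 counts with sgNT and 632, 1455 and 507 with sgUhrf1. It rose by 2.92 ± 0.38 log2 units (SE, adjusted p = 0.00072). Stx1a, a syntaxin of vesicle fusion, rose too, with 28, 16 and 11 against 112, 156 and 66 counts (2.75 ± 0.40, adjusted p = 0.0012). Both calls were kept when any 1 tumour was left out. Rims4 had 0 counts in both rows that touch its exons, 1 shared with Kcnk15 and 1 over only 33 of its bases, and Rims1 and Rims3 were not analysed here.

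Among the liprins and their partners 2 of 7 tested genes were lower (28.6%) and 1 higher (14.3%), beside 21.5% and 20.6% over all genes. Ppfia1, liprin-α1, had 237, 286 and 278 against 173, 178 and 155 counts, and its log2 difference of -0.48 ± 0.21 did not pass (adjusted p = 0.0960). Ppfibp2, the closest relative of Ppfibp1, went the other way, with 11, 9 and 4 against 15, 41 and 18 counts (1.77 ± 0.55, adjusted p = 0.0304). That call was lost without any 1 sgNT tumour or without sgUhrf1 replicate 2 (adjusted p 0.0519 to 0.128). A second Ppfibp2 row, over 1317 exon bases, had 4, 1 and 1 against 15, 25 and 16 counts and was higher by 3.32 ± 0.65 (adjusted p = 0.0041). Git2, a scaffold related to the liprin-α partner Git1, was lower by -1.09 ± 0.25 log2 units (adjusted p = 0.0088), a call lost without the pair of muscle-rich tumours (0.0651), where the difference was -1.22. Kank1, a cortical adaptor that binds liprin-β1, was lower by -1.40 ± 0.40 (adjusted p = 0.0217), and its call was lost without sgNT replicate 2 or 3 or sgUhrf1 replicate 1 (0.0535 to 0.0622).

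The partners of Nalcn were near 0 whatever the group. Unc79, a channel subunit, had 1 count in all 6 tumours together, and Fam155a, another subunit, had 0. The row of Unc80 is shared with Kansl1l, Rpe and another gene and gives no value for it alone. The only sodium channel gene tested was Scn8a, a voltage-gated channel, which rose from 1, 1 and 1 counts to 22, 71 and 48, or 53.3-fold (counting interval 17.9 to 262). Nalcn and Scn8a thus lay on opposite sides of 0.

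Around calcineurin, 3 of 10 tested genes were lower (30%) and 2 higher (20%), beside 21.5% and 20.6% over all genes. Rcan3, of the same regulator family as Rcan2, had 111, 194 and 161 against 95, 153 and 79 counts and did not pass (-0.35 ± 0.29, adjusted p = 0.357). Nfatc2, a transcription factor that calcineurin activates, rose from 56, 39 and 41 to 168, 334 and 306 counts (2.77 ± 0.35, adjusted p = 0.00059), and kept its call without any 1 tumour. Nfatc4 was higher by 1.18 ± 0.34 (adjusted p = 0.0239) and Nfatc3 lower by -1.06 ± 0.26 (adjusted p = 0.0121). The Nfatc4 call was lost without sgNT replicate 2 or 3 or sgUhrf1 replicate 1 or 3 (0.0617 to 0.0819), and the Nfatc3 call without sgNT replicate 2 or 3 (0.0507 to 0.0535). Chp1, a calcineurin-like calcium-binding protein, was lower by -0.86 ± 0.19 (adjusted p = 0.0070), a call lost without the muscle-rich pair (0.0968), where the difference was -0.75. Rcan1 shares its row with Runx1, Clic6 and another gene and is not told apart from them.

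For the NEDD4 family, 2 of 4 tested genes were lower (50%) and 0 higher, beside 21.5% and 20.6% over all genes. Hecw2, the nearest relative of Hecw1, had too few counts to test, its largest row holding 8, 5 and 6 against 2, 3 and 0. Itch, a ligase known from T cell tolerance, was lower by -0.97 ± 0.25 log2 units (adjusted p = 0.0135), a call lost without sgNT replicate 2 (0.0541). Dvl1, a Wnt pathway protein that HECW1 ubiquitinates, had a smaller difference of -0.54 ± 0.16 (adjusted p = 0.0215), lost without any 1 sgNT tumour or sgUhrf1 replicate 1 (0.0508 to 0.0688). Since Hecw1 was chosen for its fall, nothing is read from its distance to Itch and Dvl1.

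In the neurite and X-linked intellectual disability list, 3 of 7 tested genes were lower (42.9%) and 0 higher, beside 21.5% and 20.6% over all genes. Dlg3, a postsynaptic scaffold, had 46, 86 and 46 against 7, 6 and 9 counts (-2.77 ± 0.47, adjusted p = 0.0021). Huwe1, a ubiquitin ligase, had 839, 1060 and 1022 against 264, 275 and 123, or 157 ± 24.1 against 39.1 ± 10.6 CPM (SD, n = 3; adjusted p = 0.00053). Both calls were kept without any 1 tumour. In neither did the groups overlap, which 29.6% of all tested genes also showed in the lower direction. All 7 tested genes of this list lie on the X chromosome. Of 113 tested X-linked genes 49 (43.4%) were lower and 11 (9.73%) higher, with a median log2 difference of -0.71. Over the 19 autosomes, 14.6% to 31.2% of genes were lower and medians ran from -0.36 to 0.29. That the X chromosome stands apart was seen after the values were known, and its part in the fall of Nexmif was not tested. The log2 difference of Nexmif was -3.79 ± 0.27. Since Nexmif was chosen for its fall, nothing is read from its distance to the X median. The other 5 genes are autosomal.

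**Figure D3:**
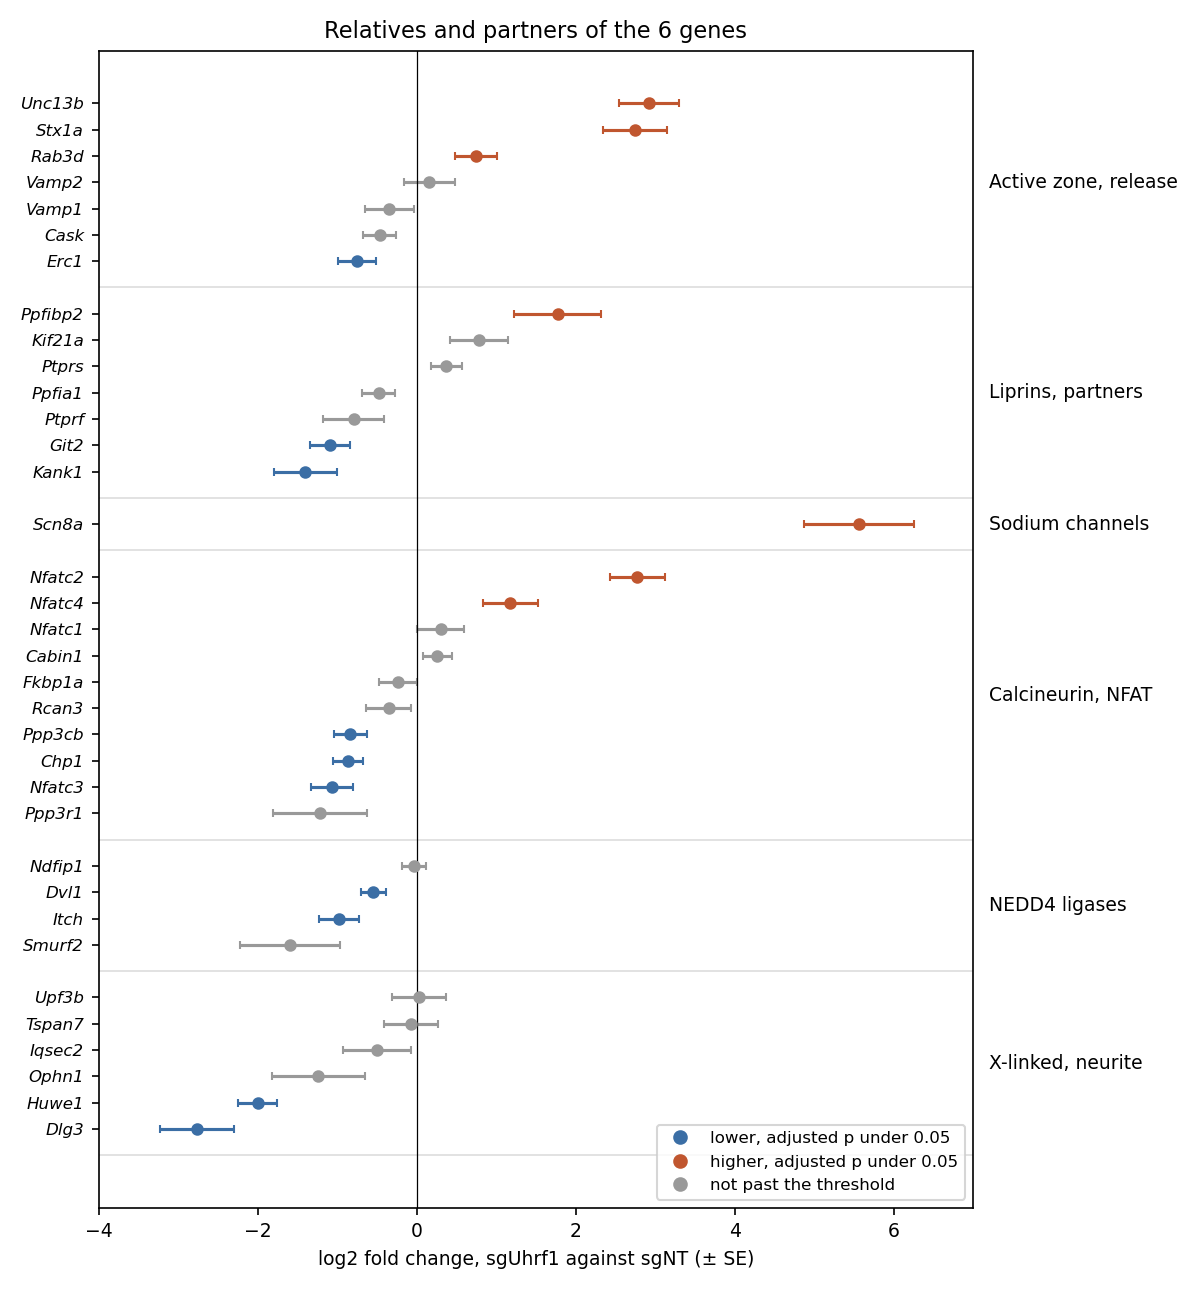
Log2 difference, sgUhrf1 minus sgNT, with bars of ± SE for 35 of the 38 tested companion genes, grouped by list and coloured by whether the gene was lower, higher or not past the threshold. Companions lie on both sides of 0, with Unc13b, Stx1a, Nfatc2 and Scn8a on the higher side and Dlg3 and Huwe1 on the lower.

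**Figure D4:**
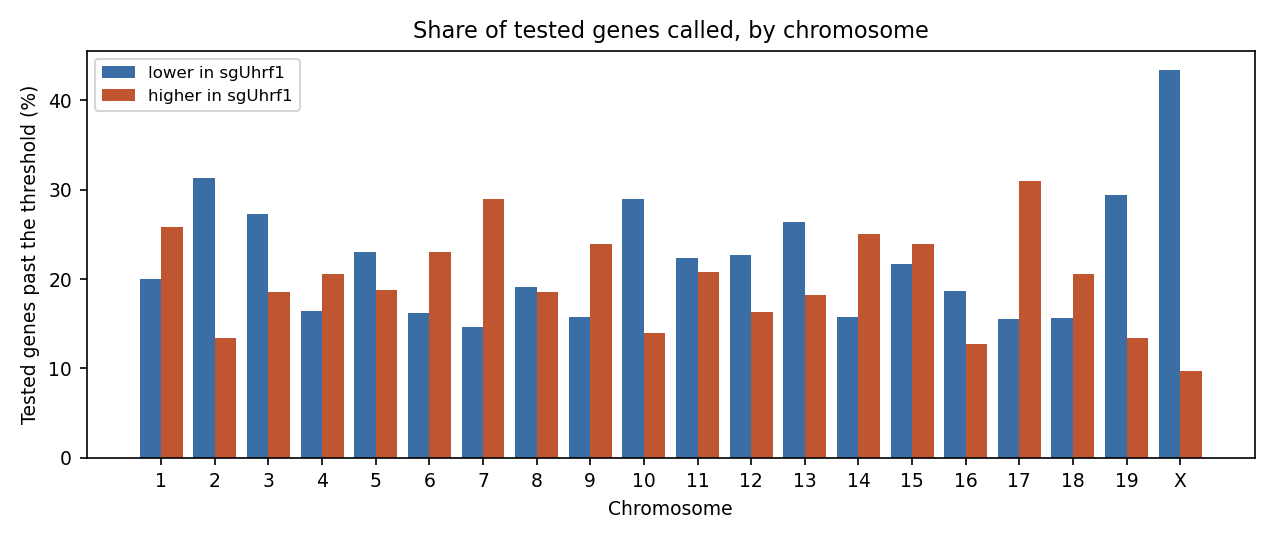
Bars give the percentage of tested genes on each chromosome that were lower or higher in sgUhrf1 tumours. The X chromosome has the highest share lower, 43.4%, and the lowest share higher, 9.73%.

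Genes next to the 6 on the chromosome were taken within 500 kb. Of 12 that could be tested 3 were lower and 0 higher, beside 21.5% lower and 20.6% higher over all genes. Their median log2 difference was -0.81, against -0.0035 over all genes. Lrp12, a lipoprotein receptor relative 186217 bases from Rims2, had 137, 150 and 167 against 61, 33 and 9 counts (-2.01 ± 0.49, adjusted p = 0.0114). Ccdc91, 443803 bases from Ppfibp1, was lower by -1.52 ± 0.36 (adjusted p = 0.0103), a call lost without sgNT replicate 3 (0.0501) and without the muscle-rich pair (0.0787, at -1.64). The third, 1700034J05Rik, had 31, 28 and 41 against 1, 0 and 5 counts (-3.76 ± 0.84, adjusted p = 0.0077), and its call was lost without the muscle-rich pair (0.0540), where the difference was -3.57. It lies inside an intron of Ppfibp1, as does its whole row of 8631 bases, and its reads cannot be told apart from unspliced Ppfibp1. Around Rcan2, Cyp39a1 at 49920 bases had 44, 52 and 48 against 35, 51 and 67 counts, and its groups overlapped. The row of Mrpl32, a neighbour of Hecw1, also spans 11090 intron bases of Hecw1, so its reads may include unspliced Hecw1. Nexmif had 0 tested neighbours.

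Summed levels of marker lists for other cell types were not lower in every sgUhrf1 tumour, as the 6 genes were. The pan-neuronal list had 6 of 23 markers with a row of their own, and their summed level was 272 to 291 CPM in sgNT and 310 to 555 CPM in sgUhrf1 tumours. Most of that sum was Thy1, a surface protein also found on fibroblasts and T cells, at 250 ± 13.2 against 418 ± 117 CPM (SD, n = 3). Uchl1 had 66, 145 and 70 against 202, 80 and 118 counts and did not pass (0.74 ± 0.42, adjusted p = 0.186). Thy1 was higher by 0.74 ± 0.22 log2 units (adjusted p = 0.0268) and Map2, a dendritic microtubule protein, lower by -1.47 ± 0.44 (adjusted p = 0.0262). Neither call was stable. Thy1 lost it without any 1 sgNT tumour or sgUhrf1 replicate 1 or 3 (0.0650 to 0.113), and Map2 without sgNT replicate 2 or 3 or sgUhrf1 replicate 2 or 3 (0.0560 to 0.116). Neuroendocrine markers, 4 of 17 with a row and 0 tested, summed to 0.475 to 1.33 against 2.86 to 23.2 CPM. Most of the sgUhrf1 sum in replicates 1 and 2 was Ddc, the decarboxylase of monoamine synthesis, with 0, 2 and 1 against 70, 130 and 7 counts. Schwann cell and glia markers, 7 of 15 with a row, summed to 37.1 to 53.0 against 34.9 to 198 CPM, with Gfap at 0 in all tumours. Cdh19, a Schwann lineage cadherin, had 1 against 90 counts.

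Skeletal muscle, which lies beneath the skin, was uneven between tumours of each group. Its 11 measured markers of 25 summed to 107, 800 and 102 CPM in sgNT and 648, 77.6 and 112 CPM in sgUhrf1 tumours, and 0 of 6 tested passed. Ckm, the muscle creatine kinase, had 15, 1642 and 1 counts in the sgNT tumours, beside 60, 67 and 61 for Rcan2, which muscle also makes, and the part of muscle RNA in the Rcan2 reads was not tested. Y-linked genes track the injected cells if the line is male, since the hosts were female. The 4 detected ones of 7 summed to 95.8, 71.2 and 70.5 CPM in sgNT and 162, 78.1 and 230 CPM in sgUhrf1 tumours, so no sgUhrf1 tumour fell below the lowest sgNT tumour. Of these Eif2s3y was higher by 1.70 ± 0.45 log2 units (adjusted p = 0.0157), a call lost without sgUhrf1 replicate 3 (0.0534). Per Y-linked count, the lowest sgNT tumour exceeded the highest sgUhrf1 tumour 8.74-fold for Nexmif, 62.9-fold for Rims2, 15.9-fold for Nalcn, 102-fold for Hecw1 and 10.1-fold for Ppfibp1. These ratios are a description, since the genes were chosen for their fall, and the part of tumour cell content in it was not tested.

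**Figure D5:**
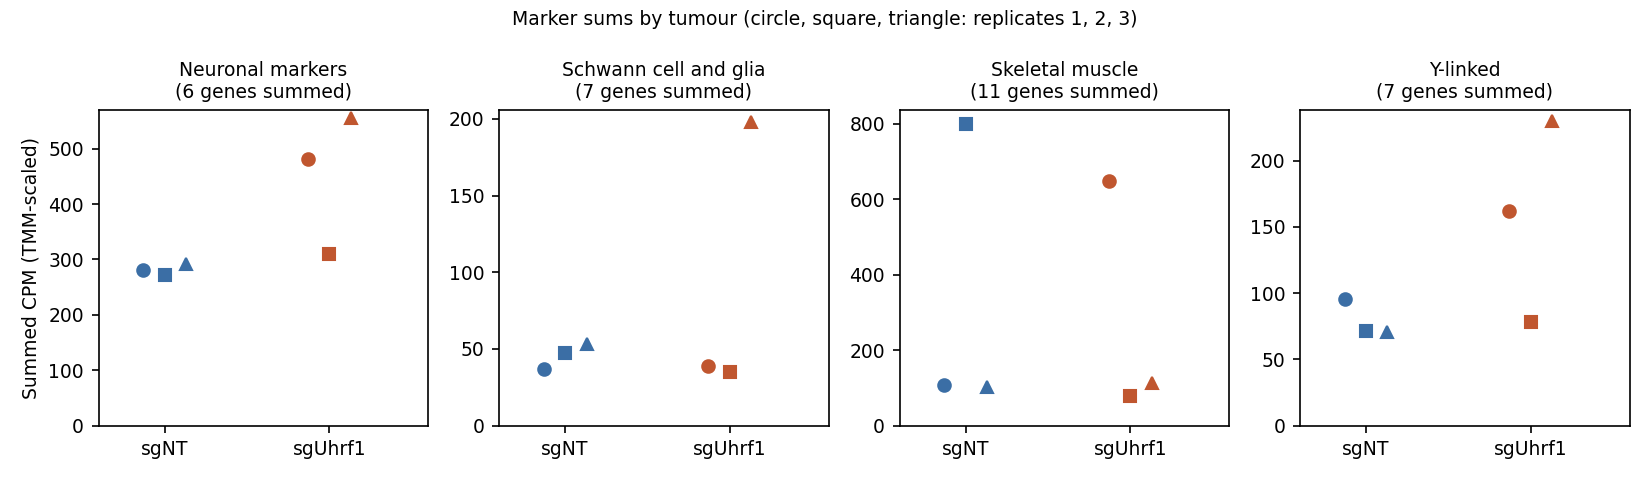
Summed CPM of each marker list by tumour, for neurons, Schwann cells and glia, skeletal muscle and the Y chromosome, with symbols for replicates 1 to 3. Muscle markers are high in sgNT replicate 2 and sgUhrf1 replicate 1, and the Schwann cell and Y-linked sums are highest in sgUhrf1 replicate 3.

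REST, the repressor that silences neuronal genes outside neurons, and its partners moved in both directions. Of 7 tested genes 3 were lower (42.9%) and 1 higher (14.3%), beside 21.5% and 20.6% over all genes. Rest itself had 33, 29 and 23 against 58, 63 and 35 counts over 113 exon bases (1.04 ± 0.34, adjusted p = 0.0369). A second row of Rest, over 147 bases, had 4, 22 and 24 against 5, 10 and 0 counts and gave no call. The Rest call was lost without any 1 sgNT tumour or sgUhrf1 replicate 1 or 2 (0.0578 to 0.126). The corepressor Rcor1 was lower by -1.11 ± 0.34 (adjusted p = 0.0299) and the histone methyltransferase Ehmt2 by -0.66 ± 0.23 (adjusted p = 0.0429). Both calls were lost without sgNT replicate 2 or 3 or sgUhrf1 replicate 3, with Rcor1 lost also without sgUhrf1 replicate 2 and Ehmt2 also without sgUhrf1 replicate 1 (0.0567 to 0.144 over both).

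The genes closest in pattern to the mean profile of the 6 were chosen by the root mean square difference of centred log2 CPM over the 6 tumours, among 4268 candidates. They were Col4a6, a basement membrane collagen, at 0.206, Prss12, the protease neurotrypsin, at 0.334, the transcription factor Sp8 at 0.387, Ank1, an ankyrin, at 0.437, and Edil3, an integrin ligand, at 0.452. The 6 genes themselves lay between 0.314 for Rcan2 and 0.663 for Hecw1 from their own mean, so these 5 are as near as the members are. Prss12 had 32.8 ± 11.2 CPM in sgNT tumours (SD, n = 3) and 1.85 ± 0.275 in sgUhrf1 tumours, and Ank1 31.0 ± 3.92 and 1.93 ± 0.718. Sp8 had 85 counts against 0. As the profile chose them, these values are a description.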

How the data were processed

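Each tumour has a deposited table of whole-number read counts by row. According to the submitters' processing notes, fastp, STAR and featureCounts were used on GRCm38. Per the file headers, featureCounts 2.0.1 counted reads with a GENCODE M26 annotation, whose coordinates belong to another build. Strand use is not given in the sources used here. Each of 53599 rows was therefore renamed by overlap of its intervals with GENCODE vM21 exons: a row names a gene where it covers at least 50 bases of exon of that gene alone (13432 rows, 41.4% of counts), and the most-counted row stands for the gene. Counts of all rows were fitted with edgeR 4.0.16 (R 4.3.3; TMM, a filter at 10 counts, quasi-likelihood test, Benjamini-Hochberg over 10503 rows, threshold 0.05), with all 6 tumours and no covariate. CPM use TMM library sizes. The main rows of the 6 genes also span intron bases, so their counts may include unspliced reads. The fit was tested on simulated data. Intervals are 95% exact Poisson ratios and cover counting error only.

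The 6 genes and all lists were chosen with earlier results of these data known. Named genes are the 6, their paralogs and partners, up to 4 called genes a list by size (some are not reported here), tested neighbours and the 5 nearest patterns. Alternatives were size factors, DESeq2 1.42.0, limma 3.58.1 voom, other filters and overlaps, summed rows, a replicate block and left-out tumours.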

Additional observations from a re-analysis of the deposited data

How the results depend on the processing

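In every alternative that gave a value, the log2 difference of each of the 6 genes stayed below 0. Of 15 alternatives, Rims2 had a value in 13 and Nalcn in 14. Both dropped out at a minimum count of 30, and Rims2 also where 200 bases of exon overlap were required. It ran from -3.97 to -3.45 for Nexmif, -8.79 to -5.82 for Rims2, -5.93 to -4.38 for Nalcn, -7.06 to -5.61 for Hecw1, -8.95 to -6.79 for Rcan2 and -4.49 to -4.04 for Ppfibp1, and fitted values of Rcan2, at 0 in 3 tumours, depend on the prior count. Counts of genes moved more. Leaving out 1 tumour gave 613 to 902 lower and 657 to 921 higher genes, and 6 to 13 lower and 6 to 7 higher companions. Without sgNT replicate 2 there were 613 lower genes and 6 lower companions. Without the muscle-rich pair there were 384 lower and 522 higher genes, and 4 lower companions. A minimum count of 30 left 5 higher companions. The cause was not tested. Deviations of same-numbered tumours did not correlate (r of -0.079 to 0.050 over 10503 rows), and tumours of different number reached 0.110. With 3 tumours a group, centred within groups, this cannot exclude a batch shared by number. A replicate block gave 879 lower and 824 higher genes and 12 lower and 6 higher companions. At this depth 3 counts correspond to 0.445 to 0.660 CPM, which limits the falls of Rims2, Nalcn, Hecw1 and Rcan2.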
